A study of Rattus norvegicus with 6 samples.

Results

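DNA repair genes were described in rat aortic smooth muscle cells that were exposed to laminar fluid shear stress or kept static. The genes were 45 symbols of homologous recombination, the Fanconi anaemia pathway, checkpoint kinases, mismatch repair, base and nucleotide excision repair, end joining and direct reversal. Every probe set that the platform annotation paired with exactly 1 of these symbols was used, which gave 56 of 31099 probe sets for 43 of the 45 genes, out of 14217 genes on the array. Atm and Fancg were not analysed here, since no probe set carried either symbol alone. The sheared group was 3 confluent cultures under flow in a chamber, at 14 dyn per square centimetre and lasting 24 h, and the control group was 3 static cultures. All cultures were rat aortic cells of passage 3 to 5, held beforehand for 24 h in medium in which 0.1% albumin replaced the 10% serum used for growth. Pairing numbers 1 to 3 tied each sheared culture to a static one, but what a pair shared is not given, so the p-values reflect how far these 6 cultures scattered, and that scatter may be technical. Strain, sex and number of animals are not given, and other differences between a flow chamber and a static dish cannot be told apart from shear stress.

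Cells repair DNA by several routes. Homologous recombination mends double-strand breaks with the sister chromatid as a template and is used mainly in dividing cells, whereas end joining rejoins broken ends without a template and also acts outside S phase. The excision pathways cut out a damaged base or a stretch around a bulky lesion, and mismatch repair corrects replication errors. Many recombination and checkpoint genes are transcribed with the DNA replication genes, through E2F factors. Cultured smooth muscle cells still divide, unlike most of those in a healthy artery wall.

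Values are linear signal intensities, made comparable between arrays by the authors, and a gene with several probe sets is represented by its brightest unless stated. Fold changes are shear over static of log2 values after 16 was added to each signal, and that addition shrinks the changes of dim genes. A gene rose or fell where limma's adjusted p, computed over all 21729 probe sets tested, was below 0.05. Smooth muscle markers had a summed signal of 4037.2 to 4141.1 in sheared and 5066.1 to 5692.1 in static arrays, with Tagln and Acta2 the brightest of 8, and 5 of the 8 fell. Of 7 endothelial markers 3 were bright enough to test (summed signal 127.4 to 153.9 in sheared and 179.7 to 194.5 in static arrays), and Pecam1, Vwf, Tie1 and Kdr had means under 5. Of those tested Egfl7 was the brightest and fell (-0.40, adjusted p = 0.020), while Tek and Erg did not pass. A second Egfl7 probe set did not pass (-0.10, adjusted p = 0.59). Of 7 leukocyte markers 4 were tested (136.9 to 177.1 in sheared and 195.0 to 247.5 in static arrays), with Ptprc and Itgam means under 2. Cd14 was the brightest, with means of 107.9 in sheared and 181.9 in static arrays, and fell (-0.68, adjusted p = 0.00096). Cd68 rose (0.70, adjusted p = 0.0037), and Cd3e and Csf1r did not pass. All 8 fibroblast markers were tested, with sums of 4339.0 to 7325.4 in sheared and 5327.9 to 7767.0 in static arrays. Of these Pdgfra, Twist2, Col14a1 and Scara5 fell, each at least 2-fold, and 2 rose. Another Col14a1 probe set did not pass (-0.29, adjusted p = 0.18), with overlapping groups. The part of these other cell types in the results was not tested. The 3′ over 5′ signal ratio, a sign of RNA quality, was on the log2 scale 0.156 ± 0.0062 in sheared and 0.166 ± 0.0097 in static arrays for Gapdh (SD, n = 3; exact permutation test, two-sided, p = 0.3). For beta-actin it was 0.393 ± 0.028 in sheared and 0.255 ± 0.036 in static arrays (exact permutation p = 0.1, the smallest possible), and its part in the results was not tested.

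Of the 43 genes 20 fell, 5 rose and 18 did not pass. Among all 11248 genes tested 30.1% fell and 27.8% rose. Among the genes that fell were Fancd2, Exo1, Parp1, Rad51c, Chek1 and Rad54l, and those that rose were Ercc1, Nbn, Ercc3, Pms2 and Apex1. At least 2-fold falls were seen in 9 genes, against 9.63% of all genes, and at least 2-fold rises in 1, Ercc1, against 6.98%. The median log2 fold change was -0.33 over the 43 genes and -0.053 over all genes tested. Fewer cells that express a gene and less of its RNA per cell cannot be told apart in these bulk cultures.

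**Figure D1:**
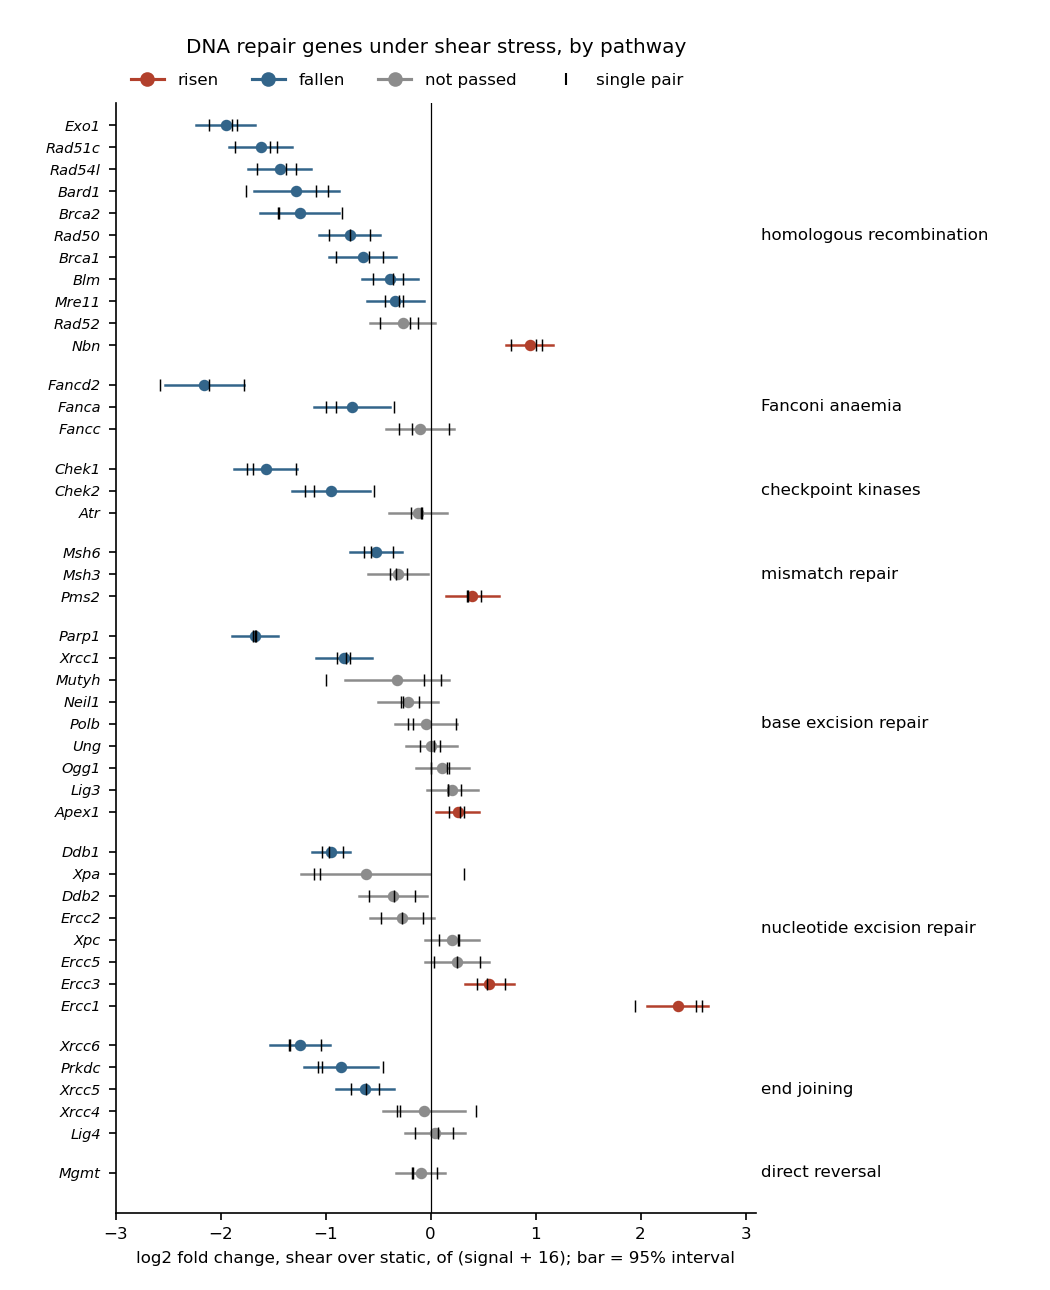
Log2 fold change of (signal + 16), shear over static, for the brightest probe set of each of 43 genes (dots), with the 95% interval of the paired limma fit (bars) and the change in each of the 3 pairs (ticks), grouped by pathway. Of 11 homologous recombination genes 9 lie left of 0 as fallen and only Nbn lies right of 0 as risen, while Ercc1 in nucleotide excision repair stands at 2.35.

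All 3 sheared arrays lay below all static arrays for 25 of the 43 genes (33.8% of all genes) and above them for 8 (30.6% of all genes). The change had the same sign in all 3 pairs for 35 genes, against 74.8% of all genes. Pair 1 gave the smallest change in 12 of the 20 genes that fell, and in 57.9% of all fallen genes. At the level of single probe sets, 52 of 56 were bright enough to test, and 26 fell and 5 rose, where 28.5% and 24.3% of all probe sets did. The share of called probe sets that rose, over all genes, was 46.06% on the deposited scale, 52.3% with quantile normalization and 59.08% with median centring. The count of risen genes rested on few arrays: it was 3 without pair 2 or without pair 3, and 8 after median centring of the arrays.

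The promoters of 36 of the 43 genes were found in a RefSeq table of assembly GRCr8, as windows from 250 bases before to 50 bases after the annotated start. They were searched on both strands for the E2F-type strings TTGGCGC and TTCCCGC, for the cell cycle homology string TTTGAA and for CCAAT. An E2F-type string was present in 6 of 17 fallen genes (35.3%), in 1 of 4 risen genes and in 3 of 15 that did not pass. It was in 6.67% of all 27457 promoters, many of genes that were not tested. Among all genes tested it was in 14.3% of the promoters of fallen, 11.5% of risen and 11.3% of not passed genes. TTTGAA was in 5 of 36 (18.1% of all promoters) and CCAAT in 15 of 36 (37.7% of all promoters). Among all genes tested TTTGAA was in 12.8% of the promoters of fallen, 10.5% of risen and 10.7% of not passed genes. For CCAAT these shares were 40.8%, 36.4% and 36.8%. Most fallen genes, Exo1, Rad51c, Rad54l and Parp1 among them, had no E2F-type string in the window, and a match is not evidence of a bound site. The E2F-type string of Fancd2 began 9 bases after the start, that of Msh6 4 bases before it and that of Bard1 204 bases before it. Fancc and Ung, which did not pass, also hold a whole E2F-type string in the 120 bases before the start, at 29 and 31 bases, and are not shown. The 120 bases before the start are shown for the 3 fallen genes that hold a whole E2F-type string there, Chek1, Brca1 and Rad50, and for Ercc1, the gene that rose most, which holds none. Capitals mark the string on either strand.
Chek1, chr8:44629844-44629963, minus strand: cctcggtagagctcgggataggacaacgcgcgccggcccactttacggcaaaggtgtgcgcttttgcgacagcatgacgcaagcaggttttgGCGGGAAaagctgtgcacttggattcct
Brca1, chr10:86977582-86977701, minus strand: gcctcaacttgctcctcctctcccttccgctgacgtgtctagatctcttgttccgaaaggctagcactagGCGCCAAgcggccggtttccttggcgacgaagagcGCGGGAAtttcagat
Rad50, chr10:38362101-38362220, minus strand: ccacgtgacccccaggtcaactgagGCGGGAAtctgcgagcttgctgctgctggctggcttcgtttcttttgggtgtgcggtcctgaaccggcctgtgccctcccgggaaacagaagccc
Ercc1, chr1:88124621-88124740, plus strand: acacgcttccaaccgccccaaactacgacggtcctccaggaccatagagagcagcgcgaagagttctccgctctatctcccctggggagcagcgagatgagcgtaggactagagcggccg
Brca1 carries the string at 50 and at 15 bases before the start, Chek1 at 28 and Rad50 at 95.

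In homologous recombination 9 of 11 genes fell (30.1% of all genes), Nbn rose (27.8% of all genes) and Rad52 did not pass. Their median log2 fold change was -0.77, and 10 of the 11 had all sheared arrays below all static ones (33.8% of all genes). Exo1, the exonuclease that resects broken ends and also serves mismatch repair, had signals of 24.6, 9.0 and 12.0 in sheared arrays 1 to 3, against 129.6, 92.2 and 88.0 in static arrays. The sheared arrays lay far below the static ones, and Exo1 fell, with a log2 fold change of -1.95 (95% interval -2.23 to -1.67, adjusted p = 1.2e-05). The size depended on the value added before log2 and ran from -2.78 to -1.08 over the alternatives. Rad51c, which acts in homologous recombination, had 26.8, 18.8 and 14.2 in sheared and 102.2, 84.2 and 93.7 in static arrays. Rad54l, the motor protein that drives strand exchange, had 16.5, 7.9 and 6.9 in sheared and 63.2, 46.2 and 55.8 in static arrays. Both fell without overlap between the groups, with log2 fold changes of -1.62 for Rad51c (adjusted p = 3.8e-05) and -1.44 for Rad54l (adjusted p = 7.05e-05). Over the alternatives these ran from -2.21 to -0.91 for Rad51c and from -2.38 to -0.68 for Rad54l.

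The BRCA genes were dim and fell as well. Brca2, a mediator of strand exchange, had 9.5, 2.0 and 2.0 in sheared and 29.6, 33.0 and 33.3 in static arrays. Brca1, the ubiquitin ligase that promotes end resection, had 15.4, 10.3 and 12.9 in sheared and 31.1, 33.1 and 23.6 in static arrays. Its partner Bard1 had 17.6, 12.0 and 1.2 in sheared and 50.1, 43.8 and 42.2 in static arrays. None of the 3 genes had overlapping groups, and the log2 fold changes were -1.25 for Brca2 (adjusted p = 0.000435), -0.65 for Brca1 (adjusted p = 0.0054) and -1.28 for Bard1 (adjusted p = 0.00052). Sheared signals of all 3 lay near or below the 16 added before log2, so the size of their fall depends on it. Rad52, which in yeast is a main recombination protein and in mammals a back-up, was the exception, with 20.7, 19.8 and 15.4 in sheared and 26.0, 23.0 and 27.8 in static arrays. Its groups did not overlap either, but the change of -0.27 did not pass (adjusted p = 0.13).

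The MRN complex, in which Mre11, Rad50 and Nbn together sense a break and start resection, gave calls of both directions. Nbn rose: its signal was 498.2, 669.9 and 575.0 in sheared and 285.6, 312.6 and 277.8 in static arrays. Every sheared array exceeded every static one. In pairs 1 to 3 the log2 changes were 0.77, 1.06 and 1.01, and the fitted value was 0.95 (95% interval 0.72 to 1.17, adjusted p = 0.00013). Rad50, the ATPase of the complex, fell on both probe sets tested, to 54.0, 45.7 and 41.1 in sheared arrays against 103.1, 76.1 and 95.8 in static arrays on the brighter one. The log2 fold changes were -0.77 (adjusted p = 0.0012) and -0.76 (adjusted p = 0.0056), and another Rad50 probe set was too dim to test. Mre11, the nuclease, had 27.6, 31.3 and 23.7 in sheared and 42.9, 42.4 and 31.7 in static arrays, a change of -0.33 that passed narrowly (adjusted p = 0.045). Its call was lost without any 1 of the 3 pairs (adjusted p = 0.097, 0.14 and 0.13 without pairs 1, 2 and 3) and under both other scalings (adjusted p = 0.26 and 0.24). It was also lost without the pair block (adjusted p = 0.0599), under a random pair effect (adjusted p = 0.051) and with no filter (adjusted p = 0.11). Blm, the helicase that dissolves recombination intermediates, had 76.3, 71.7 and 78.1 in sheared and 119.0, 96.2 and 97.0 in static arrays. It fell by 0.39 on the log2 scale (adjusted p = 0.023), a call lost without pair 2 or pair 3 (adjusted p = 0.10 and 0.067) and under both other scalings (adjusted p = 0.075 and 0.13).

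**Figure D2:**
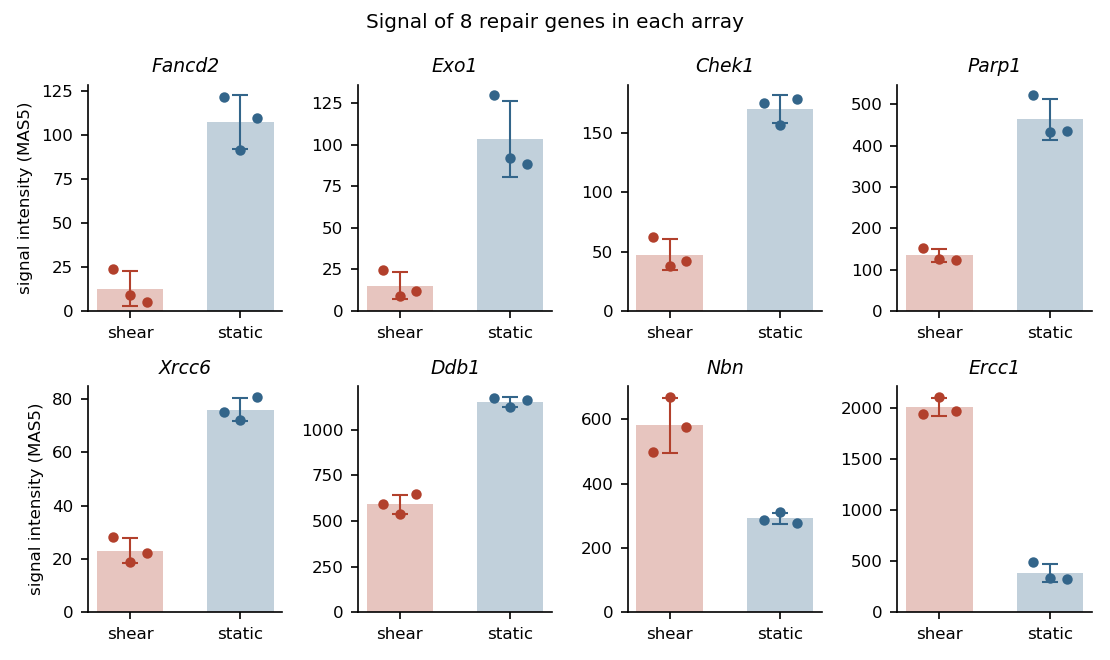
Linear signal intensity of 8 repair genes in each array, with sheared cultures on the left and static cultures on the right of each panel; bars are means, error bars are SD over 3 arrays and points are single arrays. Fancd2, Exo1, Chek1, Parp1, Xrcc6 and Ddb1 are lower and Nbn and Ercc1 higher in every sheared array, and none of the 8 has overlapping groups.

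The Fanconi anaemia pathway repairs crosslinks between DNA strands by attaching ubiquitin to FANCD2. Of the 3 genes measured Fancd2 and Fanca fell, where 30.1% of all genes did. Fancd2 had 24.1, 8.9 and 5.1 in sheared and 121.6, 91.4 and 109.5 in static arrays. The fit gave -2.15 on the log2 scale (95% interval -2.53 to -1.77, adjusted p = 3.1e-05), and it was smallest in pair 1 (-1.78). With sheared signals near or below the added 16, the size depended on that addition: it was -3.23 with 1 added and -1.17 with 64 added. Fanca, part of the ligase complex that modifies FANCD2, had 16.8, 16.3 and 14.6 in sheared and 25.7, 44.2 and 45.1 in static arrays, a change of -0.75 (adjusted p = 0.0049). Fancc, of the same complex, did not pass on its brightest probe set (-0.10, adjusted p = 0.58), where the groups overlapped. A dimmer Fancc probe set fell (-0.50, adjusted p = 0.042), also with overlapping groups, and that call was lost without pair 3 (adjusted p = 0.30) and under both other scalings (adjusted p = 0.11 and 0.12).

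Among the checkpoint kinases, which signal from damaged or stalled DNA to the cell cycle, the effectors Chek1 and Chek2 fell and Atr did not pass. Chek1, whose promoter is shown above, had 62.6, 37.7 and 42.0 in sheared and 175.2, 156.9 and 178.3 in static arrays. The groups lay far apart, with a log2 fold change of -1.57 (adjusted p = 4.6e-05). Chek2 had 17.9, 7.1 and 11.1 in sheared and 33.2, 36.8 and 42.4 in static arrays and fell by 0.95 (adjusted p = 0.0016). Atr, the kinase upstream of CHK1, had 39.2, 22.7 and 22.9 in sheared and 42.2, 25.2 and 28.3 in static arrays. Those groups overlapped, while each sheared array lay a little below its own static partner, and the interval of its change ran from -0.39 to 0.16 (adjusted p = 0.43).

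Of the 3 mismatch repair genes 1 fell (30.1% of all genes), 1 rose (27.8% of all genes) and 1 did not pass. Msh6, which takes part in recognising single mismatches, had 152.7, 154.0 and 156.4 in sheared and 245.9, 235.7 and 204.1 in static arrays and fell by 0.52 (adjusted p = 0.0045). Msh3, which takes part in recognising larger loops, had 15, 18.0 and 18.6 in sheared and 22.9, 28.4 and 24.4 in static arrays. Its groups did not overlap, but the change of -0.31 missed the threshold (adjusted p = 0.065). It passed as fallen under a random pair effect (adjusted p = 0.045) and without the trend (adjusted p = 0.043). Pms2, the endonuclease that cuts the new strand, had 127.2, 103.4 and 114.9 in sheared and 86.4, 77.7 and 86.1 in static arrays. It rose by 0.40 (adjusted p = 0.016), without overlap between the groups, and this call was lost without pair 2 (adjusted p = 0.082) or pair 3 (adjusted p = 0.086).

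In base excision repair 2 of 9 genes fell, both of them single-strand break proteins, 1 rose and 6 did not pass. Of all genes tested 30.1% fell and 27.8% rose. The median log2 fold change was -0.046. Parp1, the enzyme that marks strand breaks with poly(ADP-ribose), had 152.6, 126.2 and 124.1 in sheared and 522.1, 432.7 and 436.2 in static arrays. Its fall was alike in the 3 pairs (-1.67, -1.66 and -1.69) and averaged -1.67 (95% interval -1.89 to -1.46, adjusted p = 8.1e-06). Xrcc1, the scaffold that PARP1 recruits, had 30.9, 27.5 and 23.9 in sheared and 63.8, 59.9 and 58.1 in static arrays, a change of -0.82 (adjusted p = 0.000625). Neither gene had overlapping groups.

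The partners of XRCC1 in gap filling and ligation did not pass the test. Lig3, its DNA ligase, had 143.0, 122.0 and 137.8 in sheared and 114.1, 106.6 and 121.4 in static arrays. Its change of 0.21 did not pass (adjusted p = 0.14), nor did that of a second probe set (0.16, adjusted p = 0.25), although both passed as risen after median centring (0.36 and 0.31). Polb, the gap-filling polymerase, did not pass on either probe set (-0.05 and 0.14), with overlapping groups on both.

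Among the described genes the glycosylases, which remove damaged bases, did not pass the test. For Ung, which removes uracil, the change was 0.0069 with an interval of -0.24 to 0.25, and for Ogg1, which removes oxidised guanine, it was 0.11 (-0.14 to 0.37). Neil1, for oxidised pyrimidines, was at -0.22 (-0.50 to 0.07) and Mutyh, for adenine opposite oxidised guanine, at -0.32 (-0.82 to 0.18). Mutyh was dim and scattered, with 26.7, 1.8 and 10.9 in sheared and 23.9, 19.4 and 12.1 in static arrays, and it passed as fallen without pair 1 (-0.53, adjusted p = 0.039). Apex1, the endonuclease that cuts at the abasic site the glycosylases leave, had 462.6, 406.7 and 409.0 in sheared and 367.9, 332.4 and 359.3 in static arrays. It rose by 0.26 (adjusted p = 0.040), without overlap. The call was lost without pair 2 or pair 3 (adjusted p = 0.22 and 0.15), after quantile normalization (adjusted p = 0.062) and as a mean with its second, very dim probe set (0.097, adjusted p = 0.49).

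In nucleotide excision repair 2 of 8 genes rose (27.8% of all genes), 1 fell (30.1% of all genes) and 5 did not pass. The pathway held the largest rise of all 43 genes. Ercc1, the subunit that places the XPF nuclease on the 5′ side of a lesion, had signals of 1940.2, 2106.7 and 1971.9 in sheared and 490.1, 337.1 and 329.5 in static arrays. The sheared mean of 2006 ± 88.4 was 5.20 times the static mean of 385.6 ± 90.6 (SD, n = 3). In pairs 1 to 3 the log2 changes were 1.95, 2.59 and 2.52. The fit gave 2.35 (95% interval 2.06 to 2.65, adjusted p = 7.0e-06), which ranked 68 from the most risen of 11248 genes. It lay between 2.22 and 2.56 under all alternatives run. Ercc1 had 1 probe set. In the GRCr8 gene table Ercc1 overlaps Polr1g, a subunit of RNA polymerase I, and which transcript the probe set reads was not tested. Genes beside Ercc1 were looked at after its values were seen. Polr1g had 93.8, 113.5 and 129.9 in sheared and 92, 66.0 and 83.6 in static arrays (0.41, adjusted p = 0.046), and Ppp1r13l beyond it rose by 1.45 (adjusted p = 3.6e-05). Fosb, on the other side, rose by 0.83 (adjusted p = 0.0048). Ercc2, next after Ppp1r13l, did not pass (-0.27, adjusted p = 0.12), and Rtn2 and Ppm1n beyond Fosb were too dim to test.

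Ercc3, a helicase of TFIIH that opens DNA around the lesion, had 310.3, 315.8 and 283.3 in sheared and 224.2, 187.4 and 190.5 in static arrays. It rose by 0.56 (95% interval 0.32 to 0.80, adjusted p = 0.0024), without overlap. Ercc2, the other TFIIH helicase, had 28.6, 27.1 and 19.1 in sheared and 38.0, 29.2 and 32.7 in static arrays and did not pass (-0.27, adjusted p = 0.12). Ercc5, the nuclease on the 3′ side, had 52.9, 37.6 and 39.8 in sheared and 33.6, 36.4 and 30.7 in static arrays, and Xpc, which recognises lesions, had 103.3, 95.8 and 103.1 in sheared and 83.4, 89.8 and 83.0 in static arrays. Every sheared array was higher for both, but the changes of 0.25 and 0.20 did not pass (adjusted p = 0.14 and 0.16). They passed as risen after quantile normalization (0.41 and 0.30) and median centring (0.40 and 0.35).

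Ddb1, the adaptor that links the lesion sensor DDB2 to the CUL4 ubiquitin ligase, fell. Its brightest probe set had 591.4, 540.2 and 644.9 in sheared and 1174.4, 1121.9 and 1160.0 in static arrays (-0.94, adjusted p = 4.7e-05), and a second gave -1.11 (adjusted p = 5.65e-05). A dim Ddb1 probe set did not pass (-0.41, adjusted p = 0.11), though it did without pair 1 (-0.54, adjusted p = 0.016). Ddb2 was dim on both probe sets: the brighter did not pass (-0.36, adjusted p = 0.063) and the other fell (-0.53, adjusted p = 0.031). The brighter Ddb2 probe set passed as fallen without pair 1 (-0.46, adjusted p = 0.026), without the pair block (adjusted p = 0.0496) and under a random pair effect (adjusted p = 0.044). Without pair 3 the dimmer one did not pass (-0.32, adjusted p = 0.22). Its call was also lost under quantile normalization (adjusted p = 0.077), under median centring (adjusted p = 0.092) and with no filter (adjusted p = 0.060). Xpa, which verifies the damage, had 43.4, 23.2 and 20.2 in sheared and 31.7, 68.5 and 59.3 in static arrays. The log2 changes were 0.32, -1.11 and -1.06 in pairs 1 to 3, so pair 1 had the opposite sign. Its change of -0.62 did not pass (adjusted p = 0.085), but it passed as fallen without pair 1 (-1.08, adjusted p = 1.1e-06), where only 1 residual degree of freedom was left.

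In end joining 3 of 5 genes fell (30.1% of all genes) and the ligation genes did not pass on their brightest probe sets. Of 5 end joining genes in the list of other repair genes below, 1 fell and 1 rose. Xrcc6 and Xrcc5, the Ku70 and Ku80 proteins that cap broken ends, and Prkdc, the kinase they recruit, all fell. Xrcc6 had 28.1, 18.9 and 22.1 in sheared and 75.1, 72.1 and 80.8 in static arrays, a change of -1.24 (adjusted p = 0.00011). Xrcc5 had 41.4, 41.7 and 40.4 in sheared and 81.2, 65.1 and 70.4 in static arrays, a change of -0.62 (adjusted p = 0.0029) that a second probe set shared (-0.64, adjusted p = 0.0041). Prkdc had 41.7, 25.0 and 25.4 in sheared and 62.8, 69.9 and 68.6 in static arrays, a change of -0.85 (adjusted p = 0.0022). No sheared array reached a static one for any of the 3 genes. Xrcc4, the scaffold of the ligase, did not pass (-0.06, interval -0.45 to 0.33), with log2 changes of 0.43, -0.29 and -0.32 in pairs 1 to 3.

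Lig4, the ligase itself, had probe sets that disagreed. The brighter had 61.5, 52.5 and 39.1 in sheared and 51.0, 49.3 and 44.9 in static arrays, with overlapping groups and a change of 0.04 (adjusted p = 0.78). The other had 11.1, 1.8 and 2.5 in sheared and 43.2, 31.8 and 36.9 in static arrays and fell by 1.36 (adjusted p = 0.00012). Which of them follows the Lig4 transcript was not tested. As a mean over both, Lig4 passed as fallen (-0.66, adjusted p = 0.0034). Of the 10 members with several probe sets, 8 had more than 1 tested, and calls differed within 4 of these, Fancc, Ddb1, Ddb2 and Lig4. By the gene table of GRCr8, 17 of the 43 genes overlap another protein-coding gene, Fancd2, Rad54l, Brca2, Ercc1 and Ercc3 among them, and whether their probe sets also read the neighbour was not tested.

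**Figure D3:**
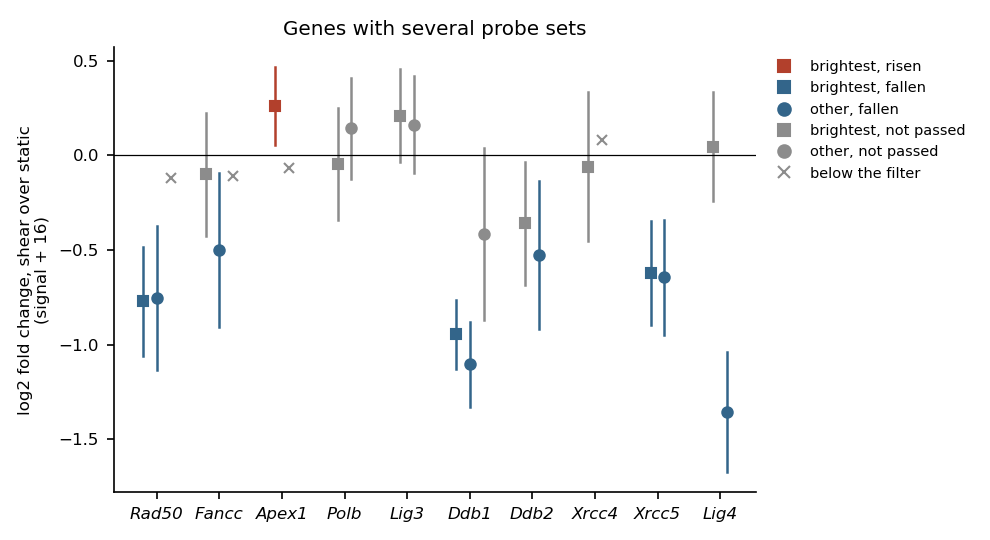
Log2 fold change of (signal + 16), shear over static, for each probe set of the 10 genes with several (squares, brightest; circles, others; crosses, too dim to test), with 95% intervals. The probe sets of Rad50 and Xrcc5 that were tested lie together below 0, while those of Lig4 lie at 0.04 and -1.36.

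Mgmt, the enzyme that takes alkyl groups off guanine in a single step, had 298.7, 244.9 and 237.5 in sheared and 286.0, 276.1 and 270.7 in static arrays. The groups overlapped and the change was -0.09 with an interval of -0.33 to 0.14 (adjusted p = 0.47).

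Other repair genes, from a list of 93 of which 71 had a probe set, were set beside the members. Of 69 tested 36 fell and 15 rose (30.1% and 27.8% of all genes), with a median log2 fold change of -0.37. As means over probe sets 32 fell and 12 rose. In homologous recombination 12 of 17 fell and 1 rose, by their brightest probe sets. Smc5 and Slx4 were counted as fallen, but another probe set of each rose (1.46, adjusted p = 2.3e-05, and 0.59, adjusted p = 0.019). A dim Smc5 probe set fell (-0.54, adjusted p = 0.016). Another probe set of Hus1, the gene that rose, did not pass (-0.03, adjusted p = 0.88). Rpa1, which coats single-stranded DNA, fell by 1.36 (adjusted p = 2.7e-05) and the Werner helicase Wrn by 1.37 (adjusted p = 0.00012). In the Fanconi anaemia pathway 4 of 5 fell and 0 rose (limma; Fance did not pass, adjusted p = 0.099), with the smallest adjusted p for Ube2t, the enzyme that delivers ubiquitin to FANCD2 (-2.20, adjusted p = 7.0e-06), and Usp1, which removes it (-1.30, adjusted p = 2.0e-05). Among damage signalling genes 6 of 11 fell and 2 rose, with H2ax at -1.65 (adjusted p = 9.1e-06) and Topbp1 at -1.48 (adjusted p = 2.6e-05). Another Topbp1 probe set did not pass (-0.39, adjusted p = 0.11).

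The excision pathways of this list held genes of both directions, as did all genes tested, of which 30.1% fell and 27.8% rose. In base excision repair 4 of 8 fell and 3 rose. The replicative ligase Lig1 (-2.09, adjusted p = 1.2e-05) and the flap nuclease Fen1 (-1.13, adjusted p = 8.3e-05) fell. The glycosylases of this list were looked at by name later, and Tdg (0.89, adjusted p = 0.00033) and Mpg (0.48, adjusted p = 0.0084) rose. Nthl1 fell on both probe sets (-0.70 and -0.73, adjusted p = 0.0077 and 0.0031), and Mbd4 was too dim to test. In nucleotide excision repair 5 of 11 fell and 5 rose, with the TFIIH core subunit Gtf2h1 up by 1.25 (adjusted p = 4.1e-05) and Cul4b, a scaffold of the ligase that DDB1 serves, down by 1.09 (adjusted p = 0.00016). Ercc4, the XPF nuclease that pairs with ERCC1, was looked at by name after values were seen and rose by 0.51 (adjusted p = 0.0083). A dimmer Ercc4 probe set rose by 1.48 (adjusted p = 0.0003), so the size of the rise differed between them. In mismatch repair Mlh3 fell by 0.82 (adjusted p = 0.0045) and Pms1 did not pass (0.25, adjusted p = 0.10). Another Mlh3 probe set did not pass (0.015, adjusted p = 0.95). In end joining Dclre1c, the Artemis nuclease, rose by 0.47 (adjusted p = 0.012) and Polm fell by 0.43 (adjusted p = 0.021), while 3 others did not pass. The demethylases Alkbh3 (1.35, adjusted p = 1.2e-05) and Alkbh2 (0.32, adjusted p = 0.048), which reverse alkylation directly, both rose. Among translesion synthesis genes 3 of 8 fell, with Rad18 at -1.30 (adjusted p = 0.00023) and Rev3l at -0.73 (adjusted p = 0.0023), and 1 rose.

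**Figure D4:**
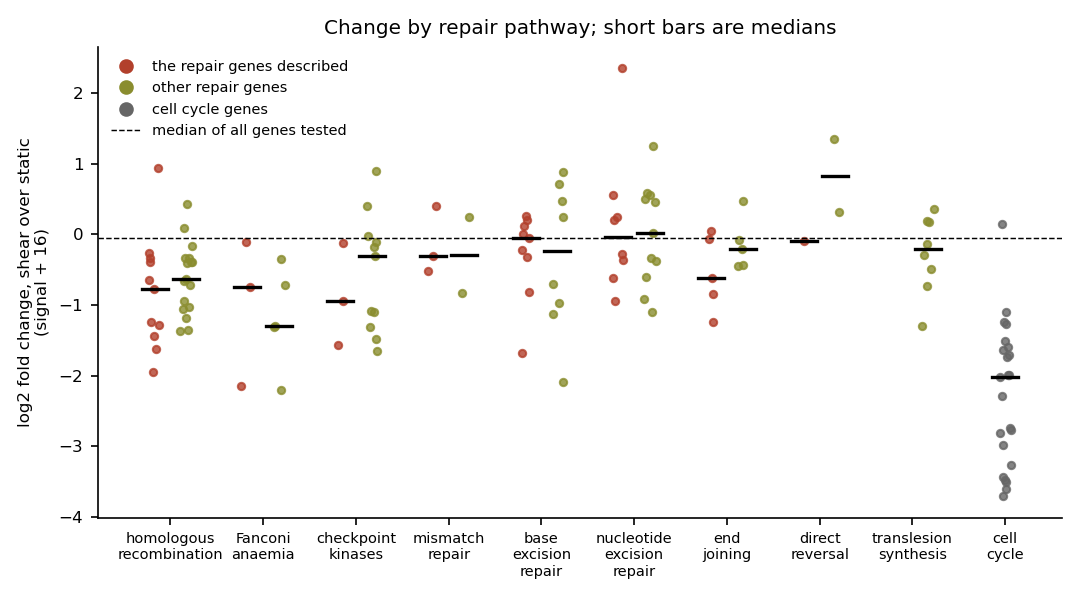
Log2 fold change of (signal + 16), shear over static, for the 43 repair genes described, 69 other repair genes and 23 cell cycle genes (points), by pathway, with medians (short bars) and the median of all 11248 genes tested (dashed line, -0.053). Medians of homologous recombination lie at -0.77 and -0.63 for the described and other genes, those of nucleotide excision repair at -0.035 and 0.016, and that of the cell cycle at -2.02. In the same order, those of checkpoint genes lie at -0.95 and -0.31 and those of end joining at -0.62 and -0.20.

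By pathway, the median log2 fold change of the described genes was -0.77 for homologous recombination, -0.75 for Fanconi anaemia, -0.95 for checkpoint kinases and -0.62 for end joining, each from 3 to 11 genes. Over the alternatives these ran from -1.13 to -0.49 for homologous recombination, from -1.18 to -0.35 for Fanconi anaemia, from -1.64 to -0.42 for checkpoint kinases and from -0.79 to -0.37 for end joining. The median was -0.31 for mismatch repair, -0.046 for base excision repair and -0.035 for nucleotide excision repair. The signs of both excision medians depended on the settings: over the alternatives they ran from -0.19 to 0.10 in base excision and from -0.09 to 0.20 in nucleotide excision repair, and they were above 0 after quantile normalization and median centring. Differences between pathways were not tested.

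Cell cycle genes, a list of 25 of which 23 had a probe set, fell in 22 cases (30.1% of all genes), with a median log2 fold change of -2.02. Mki67, a marker of dividing cells, was at -3.71 and E2f1 at -1.73. Pcna, the replication clamp, did not pass (0.15, adjusted p = 0.39), although without pair 1 it was called as risen. The cell cycle genes and the recombination, Fanconi anaemia and checkpoint genes were measured in the same sheared cultures, and the part of the cell cycle in the repair gene results was not tested.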

How the data were processed

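The deposited values were 1 linear signal intensity per probe set and array, made by the authors with MAS5, per the submitters' processing notes, which name no version. The mean of each array without the top and bottom 2% was 100.04, so arrays were already scaled, and the number of arrays limits the precision. Of 31099 probe sets 57 were controls. The platform annotation gave 20826 of the others 1 symbol, 436 several and 9780 none; all 56 member probe sets matched the GRCr8 gene table by gene identifier, with 0 symbols changed. Signals held exact zeros, so 16 was added before log2. The dimmest 30% of probe sets by mean (below 4.50) were left out. limma 3.58.1 (R 4.3.3) compared shear with static, using lmFit with the pair as a term and eBayes with an intensity trend; two-sided p-values were adjusted over 21729 probe sets by the Benjamini-Hochberg method. Simulated data were used to test the code. The series design calls the experiment paired; deviations from group means correlated by 0.071, 0.065 and 0.063 within pairs 1 to 3. The table held 0 columns of other samples. Figures used matplotlib 3.10.9 (Python 3.11.15).

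All members are named. Of the other repair genes up to 2 per pathway with the smallest adjusted p are named. Ercc4, Tdg, Mpg, Nthl1, Mbd4 and the neighbours of Ercc1 were added later. The members and lists were chosen with earlier results of these data known. The alternatives run were fits without the pair or with it as a random block, 2 other scalings (quantile normalization and median centring), filters at 0% and 50%, pseudocounts of 1 and 64, eBayes without trend or robust, each pair left out, a threshold of 0.1, and means over probe sets.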

Additional observations from a re-analysis of the deposited data

How the results depend on the processing

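The call and its direction held under all alternatives run for 18 of 20 genes fallen (not Mre11 and Blm), 3 of 5 risen (not Pms2 and Apex1) and 10 of 18 that did not pass, and for 5 of the 9 dimmer probe sets. Without the replicate block 20 member genes fell and 5 rose, as in the paired fit, but 8 recombination genes fell in place of 9 and 2 nucleotide excision genes in place of 1. With the pair as a random block 2 mismatch and 2 nucleotide excision genes fell. Recombination genes that fell numbered 7 under quantile normalization, under median centring and without pair 2 or pair 3. With the 50% filter they were 7 of 9 tested. Median centring gave 9 risen member probe sets and 8 risen genes (in base excision 2, in nucleotide excision 4); quantile normalization gave 4 risen nucleotide excision genes and 0 risen base excision genes. The causes were not tested. Without the trend, 2 mismatch and 2 nucleotide excision genes fell and 0 base excision genes rose, and the same counts came from means over probe sets, where Lig4 went to -0.66. At a threshold of 0.1, 2 mismatch and 3 nucleotide excision genes fell. The median over member genes (-0.33) was -0.20 after quantile normalization, -0.19 after median centring, and -0.14 and -0.53 with pseudocounts of 64 and 1. With a pair left out, 3 to 5 member probe sets and 3 to 5 genes rose, 0 to 1 mismatch and 0 to 1 base excision genes rose, 1 to 3 nucleotide excision genes fell and 0 to 1 cell cycle genes rose, in fits with 1 residual degree of freedom. Median centring moved the median of all probe sets from -0.067 to 0.082. Of the 43 genes 16 had means under 50 in both groups, with no detection calls used here, and 8 of 20 fallen genes had sheared means under 16.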
